A study of Mus musculus with 2 samples.

Results

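The genes described here are 10 fibroblast and matrix genes that were picked by name, with no collagens among them: *Pdgfra*, *Pdgfrb*, *Dcn*, *Lum*, *Bgn*, *Fbln1*, *Fn1*, *Sparc*, *Postn* and *Fap*. All 10 were found by symbol among the 49492 genes of the count table, and all 10 had at least 20 reads over both libraries. The study asked how the loss of macrophages changes mammary basal cells, the contractile cells that line the outside of the mammary ducts. Basal cells were sorted from adult wild-type female mice that had received repeated intraperitoneal injections of clodronate liposomes, lipid vesicles that kill the macrophages that take them up (the CL basal library), and from a control group (the Ctrl basal library). The control is labelled as untreated, while the text on the design calls it saline treated. The samples carry the label of day 7. The sort kept CD24 positive, CD29 high cells that were negative for CD45, CD31 and TER119, so white blood cells, endothelial cells and red blood cells were gated against with antibodies of their own. For fibroblasts and for the mural cells of vessels no such antibody was used, and their removal rested on CD24 and CD29. How many mice were pooled for a library is not given in the sources used here.

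Each group had 1 library, so no difference between the groups has a replicate check, and no p-value is given. The CL basal library held 38962512 reads over annotated exons and the Ctrl basal library 37846008. Differences are given as log2 fold changes, CL basal relative to Ctrl basal, after scaling for depth and composition, so negative values mean lower in CL basal. The interval beside each is a 95% exact interval that covers counting error only. It compares the reads of 2 libraries, not the conditions. Low counts were mostly even, 68.7% of those from 1 to 20 in CL basal and 67.9% in Ctrl basal, while 49.9% and 49.7% of those above 1000 were. Both ends of a fragment may therefore have entered the count, which would make the intervals too narrow, so intervals with counts halved, which are wider for every gene, are given where they come to include 0. In a bulk library, fewer cells of a type and less RNA per cell cannot be told apart.

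Connective tissue cells surround themselves with a matrix of collagen fibres, to which other secreted proteins bind. Decorin, lumican and biglycan (*Dcn*, *Lum*, *Bgn*) are small leucine-rich proteoglycans, horseshoe-shaped proteins that carry sugar chains and bind collagen. Fibronectin (*Fn1*) and fibulin-1 (*Fbln1*) are glycoproteins that link the matrix to cells and to other matrix fibres. *Sparc* and periostin (*Postn*) are matricellular proteins, which tune how cells meet the matrix. *Pdgfra* and *Pdgfrb* encode the receptor tyrosine kinases for platelet-derived growth factors, the first a common marker of fibroblasts and the second of fibroblasts and mural cells, and *Fap* encodes a cell-surface serine protease of activated fibroblasts. In the mammary gland, fibroblasts lie outside the basement membrane that basal cells rest on.

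All 10 genes had fewer reads in CL basal than in Ctrl basal after scaling, and they differed widely in how much lower they were. *Lum* was lower by far the most, *Fap* and *Dcn* followed, both PDGF receptors were lower by 28.7% and 28.3%, and *Postn* and *Sparc*, which hold most of the reads, were lower by 4.65% and 5.45%. Of all 17356 genes with at least 20 reads over both libraries, 51.7% were lower in CL basal. The median log2 fold change was -0.40 over the 10 genes and -0.01 over all genes tested. The genes *Lum*, *Fap* and *Dcn*, 3 of the 10, were lower by at least 1.5-fold, as were 11.7% of all genes tested. *Lum* and *Fap*, 2 of the 10, were lower by at least 2-fold, as were 4.78% of all genes tested. Over all genes, 2029 were lower and 1100 higher by at least 1.5-fold, and 830 and 360 by 2-fold. With a trend on mean expression removed, this split was more even, at 1637 and 1421 by 1.5-fold and 662 and 487 by 2-fold. The genes were named as a group with earlier results of these libraries known, so these counts describe the group and nothing beyond it.

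Levels were compared per length, as reads per kilobase of exon scaled to library size (RPKM). The highest was 990 times the lowest in Ctrl basal and 1961 times in CL basal. *Sparc* had the highest level, 210 RPKM in Ctrl basal and 198 in CL basal, which ranked it 239 and 259 among the genes tested. *Postn* followed with 115 and 109 RPKM, at rank 463 and 498. These levels were far above that of any other member. *Bgn* had 33.0 RPKM in Ctrl basal and 30.1 in CL basal. *Dcn* had 29.5 and 18.2 RPKM, so the pair of proteoglycans stood close together in Ctrl basal, with *Bgn* 1.12 times the level of *Dcn*, and apart in CL basal, with *Bgn* at 1.65 times. *Fn1* had 10.04 and 8.40 RPKM. The remaining genes were low: *Pdgfrb* had 2.49 RPKM in Ctrl basal and 1.79 in CL basal, and *Pdgfra* had 1.69 and 1.20. *Lum* had 1.61 and 0.426 RPKM, *Fbln1* had 1.15 and 0.917, and *Fap* had 0.212 and 0.101. *Lum* and *Fbln1* changed places in CL basal, and the order of the other 8 was the same in both libraries. For scale, the basal keratin *Krt14* had 3125 RPKM in Ctrl basal and 3445 in CL basal, and the fibroblast collagen *Col1a1* had 6.80 and 5.34. *Sparc*, *Postn*, *Bgn*, *Dcn* and *Fn1* thus stood above *Col1a1* in both libraries, the first 2 by far the most. *Pdgfrb*, *Pdgfra*, *Lum*, *Fbln1* and *Fap* stood below it.

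**Figure D1:**
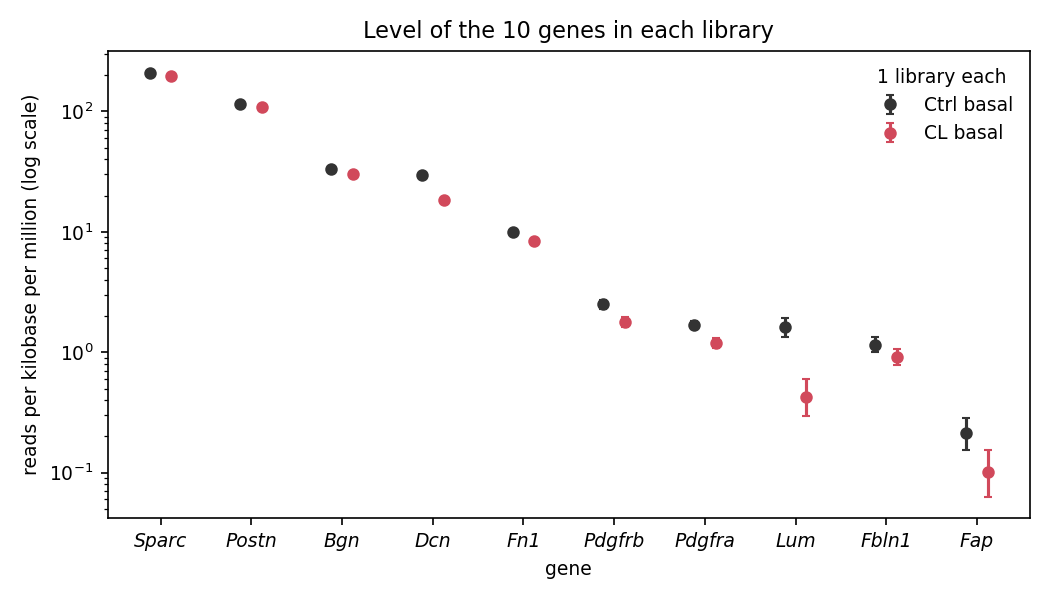
Level of each gene in RPKM on a log axis, in Ctrl basal (dark) and CL basal (red), 1 library each, with bars for the exact 95% Poisson interval of the count, which is smaller than the point for abundant genes. *Sparc* and *Postn* lie above 100 in both libraries, and *Lum* shows the widest gap, 1.61 against 0.426.

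The start regions of *Postn*, *Sparc*, *Bgn* and *Pdgfra* are shown because they stand before genes whose levels span from the highest to among the lowest of the group, and because the table of RefSeq promoters used here held 5 of the 10 genes, these 4 and *Fbln1*. Each is the 250 bases before a start annotated by RefSeq (GRCm38.p6), written 5′ to 3′ on the strand of the gene. The *Sparc* start lies 3103 bases inside the end of the gene in the count table. Capitals mark motifs that were searched for on either strand. The TATA box was read as TATAAA, the GC box as GGGCGG and the AP-1 site as TGACTCA. The other motifs were the box named CCAAT for its letters, and the CArG box of serum response factor. The *Postn* region lies at chr3:54360857-54361106 on the plus strand, the *Sparc* region at chr11:55420081-55420330 on the minus strand, the *Bgn* region at chrX:73483351-73483600 on the plus strand and the *Pdgfra* region at chr5:75152001-75152250 on the plus strand.
Postn: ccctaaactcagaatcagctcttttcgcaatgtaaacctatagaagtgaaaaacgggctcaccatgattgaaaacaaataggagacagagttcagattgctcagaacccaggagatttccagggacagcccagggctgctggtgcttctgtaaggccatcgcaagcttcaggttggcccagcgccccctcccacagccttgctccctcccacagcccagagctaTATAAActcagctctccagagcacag
Sparc: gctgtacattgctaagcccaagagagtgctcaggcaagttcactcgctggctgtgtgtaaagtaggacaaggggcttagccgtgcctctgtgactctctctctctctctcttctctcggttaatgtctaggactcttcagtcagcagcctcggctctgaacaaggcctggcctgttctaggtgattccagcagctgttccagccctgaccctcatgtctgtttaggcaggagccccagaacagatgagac
Bgn: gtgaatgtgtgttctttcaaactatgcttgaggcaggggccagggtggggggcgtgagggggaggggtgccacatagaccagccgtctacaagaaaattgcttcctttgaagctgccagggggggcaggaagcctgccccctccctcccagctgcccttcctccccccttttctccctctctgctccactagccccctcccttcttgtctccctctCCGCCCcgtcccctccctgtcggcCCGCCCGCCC
Pdgfra: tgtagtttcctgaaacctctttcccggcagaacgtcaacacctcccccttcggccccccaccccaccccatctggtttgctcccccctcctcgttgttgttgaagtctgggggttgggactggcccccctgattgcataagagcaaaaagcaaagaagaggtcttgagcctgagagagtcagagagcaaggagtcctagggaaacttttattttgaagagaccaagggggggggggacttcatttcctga

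The *Postn* region held a TATA box that began 26 bases before the start, as did 12.4% of all 32851 regions of this length somewhere in the window. The *Bgn* region held GC boxes that began 34, 10 and 6 bases before the start, the last pair of them overlapping, and 32.7% of all regions held at least 1. None of the motifs was found in the *Sparc* and *Pdgfra* regions, and none of the 4 regions held a CCAAT box (33.8% of all regions), an AP-1 site (4.46%) or a CArG box (1.47%). The G and C content was 64.4% before *Bgn*, 54.4% before *Pdgfra*, 54% before *Sparc* and 52% before *Postn*, with a median of 52.4% over all regions. *Bgn*, *Sparc* and *Postn*, the 3 genes with the highest levels, had no motif in common in these windows.

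The receptors were lower in CL basal by nearly the same amount. *Pdgfra* (chromosome 5, 75152292 to 75198215, GRCm38, plus strand) had 463 reads in CL basal against 649 in Ctrl basal, which is a log2 fold change of -0.49 (95% interval -0.67 to -0.32). *Pdgfrb* (chromosome 18, 61045150 to 61085061, plus strand) had 376 and 524 reads, which is a log2 fold change of -0.48 (-0.68 to -0.29). The libraries held 81.2 reads of *Pdgfrb* for every 100 of *Pdgfra* in CL basal against 80.7 in Ctrl basal, so the balance of the receptors was level, with a log2 change of that ratio of 0.01 (-0.25 to 0.27). Neither was lower by 1.5-fold. Of the 10024 exonic bases of *Pdgfra*, 456 lie under *Gm42802* and 166 under *Gm42803*, both on the other strand, and 30 within *Mir7025*. These neighbours had at most 6 reads in a library. The ligands of these receptors were measured as well. *Pdgfa* was at -0.40 (1322 reads in CL basal against 1745 in Ctrl basal), *Pdgfb* at -0.29 (3618 and 4400) and *Pdgfd* at -0.52 (170 and 244). *Pdgfc* was higher, at 0.25 (1329 and 1114). None of the 4 ligands differed by 1.5-fold.

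The proteoglycans were the members that parted most. *Lum* (chromosome 10, 97565501 to 97572703, plus strand) had 34 reads in CL basal against 128 in Ctrl basal, which is a log2 fold change of -1.86 (95% interval -2.51 to -1.36), so its level was 3.62 times as high in Ctrl basal. *Dcn* (chromosome 10, 97479500 to 97518162, plus strand) had 1462 and 2356 reads, which is a log2 fold change of -0.69 (-0.79 to -0.60), or 1.61 times as high in Ctrl basal. *Bgn* (chromosome X, 73483602 to 73495933, plus strand) had 7052 and 7725 reads, which is a log2 fold change of -0.13 (-0.18 to -0.09), or 1.10 times. The intervals of these 3 genes did not overlap. *Lum* and *Dcn* are neighbours, with 47338 bases between the end of *Dcn* and the start of *Lum*, yet they differed in amount: for every 100 reads of *Dcn* there were 5.43 of *Lum* in Ctrl basal and 2.33 in CL basal, a log2 change of the ratio of -1.22 (-1.78 to -0.67). For every 100 reads of *Bgn* there were 30.5 of *Dcn* in Ctrl basal and 20.7 in CL basal, a log2 change of -0.56 (-0.66 to -0.45). The count table gives other ends for *Dcn* and another start for *Lum* than GENCODE release M21, while the other 8 members have the same start and end in both.

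Among genes of like abundance, *Lum* and *Dcn* lay near the lower edge. Of the 6410 genes with 100 to 999 reads over both libraries, 0.265% had a lower log2 fold change than *Lum*. With 162 reads *Lum* lay near the low end of this class, whose deeper genes scatter less, so the share may overstate how far out it lay. Of the 5592 genes with 1000 to 9999 reads, 1.56% had a lower value than *Dcn* and 3.77% a lower value than *Pdgfra*. *Pdgfrb*, with 16.7% of its class below it, *Fbln1*, with 27.1%, and *Fap*, with 13.7% of the 3849 genes of 20 to 99 reads, lay well inside the range of such genes. The receptors had nearly the same depth and difference, with 1112 reads of *Pdgfra* and 900 of *Pdgfrb* over both libraries, and fell on either side of the class limit of 1000 reads, so the gap between their shares comes from that limit. *Fn1* had 13.0% of its class below it. *Bgn* had 11.8%, *Sparc* 17.5% and *Postn* 19.3% of the 1505 genes with at least 10000 reads below them. The spread of these classes narrowed with abundance, with a standard deviation of the log2 fold change over genes of 0.92 in the lowest class and 0.24 in the highest.

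**Figure D2:**
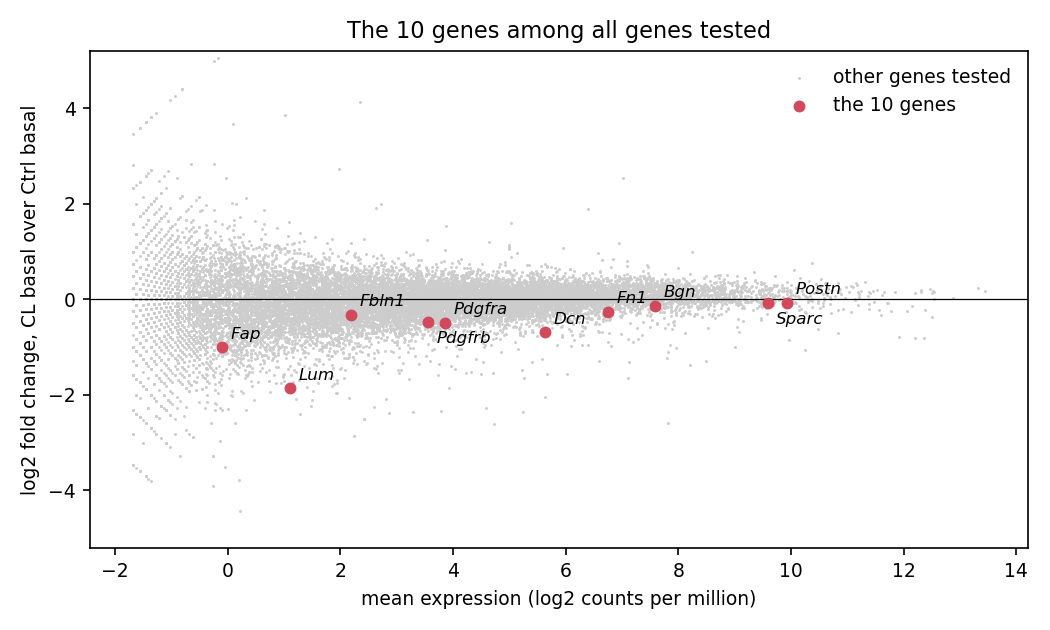
Log2 fold change (CL basal relative to Ctrl basal) against mean expression in log2 CPM for all 17356 genes tested (grey) and the 10 genes (red, named). *Lum* and *Dcn* lie at the lower edge of genes with their abundance, while *Sparc* and *Postn* lie near 0 at high abundance and *Fap* lies within a wide scatter of rarely read genes.

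The glycoproteins were lower by small amounts. *Fn1* (chromosome 1, 71585520 to 71653200, minus strand) had 3772 reads in CL basal against 4501 in Ctrl basal, which is a log2 fold change of -0.26 (95% interval -0.32 to -0.20). Of its 11685 exonic bases, 292 are shared with the opposite-strand gene *Apol7d*, which had 114 and 71 reads. *Fbln1* (chromosome 15, 85205949 to 85286535, plus strand) had 154 and 193 reads, which is a log2 fold change of -0.33 (-0.64 to -0.02). With counts halved, as if each pair of mates were a single read, the interval of *Fbln1* ran from -0.77 to 0.13, so a difference was not detectable at this depth. For every 100 reads of *Fn1* there were 4.08 of *Fbln1* in CL basal against 4.29 in Ctrl basal.

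The matricellular genes were close to level. *Postn* (chromosome 3, 54361109 to 54391037, plus strand) had 36523 reads in CL basal against 38221 in Ctrl basal, which is a log2 fold change of -0.07 (95% interval -0.09 to -0.05). *Sparc* (chromosome 11, 55394500 to 55423183, minus strand) had 28866 and 30464 reads, which is a log2 fold change of -0.08 (-0.10 to -0.06). Their ratio was level, with 79.0 reads of *Sparc* for every 100 of *Postn* in CL basal against 79.7 in Ctrl basal (log2 change -0.01, interval -0.04 to 0.02). Together these genes made up 83.1% of the reads of the 10 genes in CL basal, against 81.0% in Ctrl basal. The sum over the 10 genes, 78724 reads in CL basal against 84807 in Ctrl basal (log2 fold change -0.11), therefore follows them and says little of the others. The other 8 genes summed to 13335 and 16122 reads, which is a log2 fold change of -0.28, and most of those reads were of *Bgn* and *Fn1*. Without these as well, the remaining 6 genes summed to 2511 and 3896 reads, at -0.64 (-0.71 to -0.56). This last group was trimmed after values were seen, so its value is a description.

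The protease *Fap* (chromosome 2, 62500943 to 62574075, minus strand) had the fewest reads of the group, 22 in CL basal against 46 in Ctrl basal. That is a log2 fold change of -1.003, with an interval from -1.87 to -0.30, and with counts halved from -2.25 to 0.03. *Fap* was lower by just over 2-fold (50.1%), and missed that mark under the upper quartile scaling, with a prior count of 5 and once a trend on mean expression was removed.

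Counting error alone placed the intervals of all 10 genes below 0, and 24 of the 45 pairs of members had intervals that did not overlap (20 with counts halved). The spread between animals, or between libraries of a condition, was not measured. If libraries of a condition were assumed to vary with a coefficient of variation of 0.1, the intervals of 5 genes would lie below 0 (*Lum*, *Dcn*, *Fap*, *Pdgfra* and *Pdgfrb*). How such a coefficient relates to animals depends on how many were pooled, which is not given. With a coefficient of 0.2, the interval of *Lum* alone would (-2.82 to -0.89), and with 0.4 also that of *Lum* alone (-3.55 to -0.17). For *Dcn* the interval at 0.2 ran from -1.50 to 0.11.

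**Figure D3:**
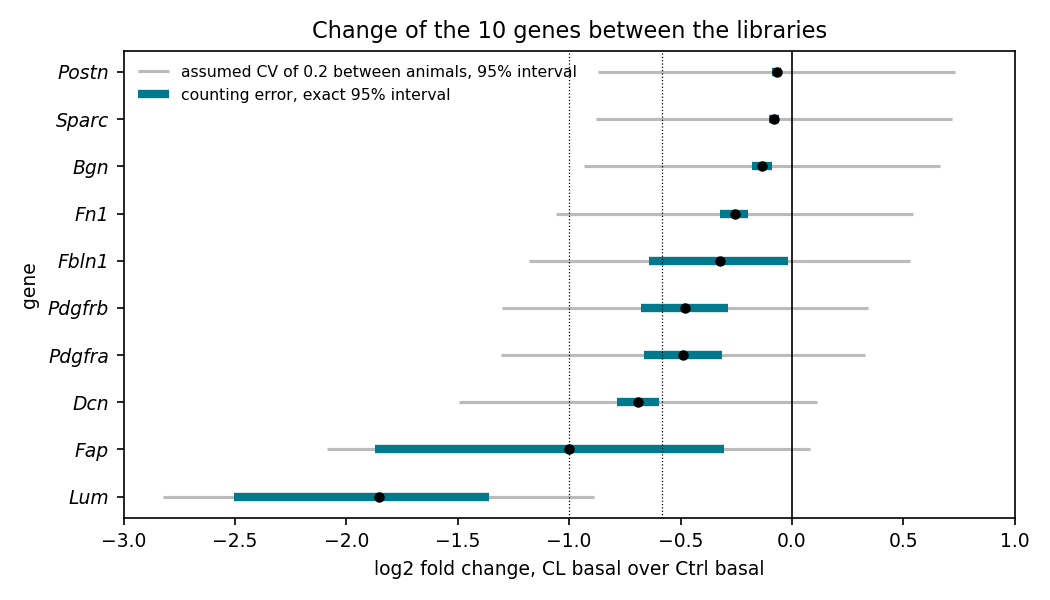
Log2 fold change (CL basal relative to Ctrl basal) for each gene (points), with the exact 95% interval from counting error (thick bars). Thin lines are the 95% interval under an assumed coefficient of variation of 0.2. It was applied once per library, so the legend's wording of between animals holds only if a library is 1 animal. Dotted lines mark 1.5-fold and 2-fold lower, and *Lum* is the gene whose thin line lies below 0, from -2.82 to -0.89.

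Related matrix genes were read from lists written by name. Of 14 other small leucine-rich proteoglycans, 9 had at least 20 reads, of which 8 were lower and 1 higher in CL basal, with 2 lower by at least 1.5-fold and a median of -0.10. *Prelp*, the member with most reads, was level (5958 reads in CL basal against 5995 in Ctrl basal, -0.01). *Podn*, which encodes podocan, was at -0.78 (178 and 307), *Ecm2* at -0.41 (321 and 425) and *Tsku* at 0.11 (80 and 74). *Kera* and *Epyc*, other proteoglycans of this family, had 0 reads in CL basal and 2 and 4 in Ctrl basal, at or near the limit of 3 counts that a count of 0 allows (0.0780 CPM in CL basal), so no fold is given. Of 19 large and cell-surface proteoglycans, 17 were tested, with 8 lower and 9 higher and a median of 0.05 that turned to -0.02 among genes with at least 100 reads and also with no filter. *Sdc4*, which encodes a syndecan, was at 0.22 (60698 and 51928 reads). *Gpc5* had 0 reads in CL basal and 2 in Ctrl basal. *Vcan*, the large matrix proteoglycan versican, was at 0.58 (2200 and 1466), against *Gpc2* at -0.70 (38 and 63) and *Cspg4* at -0.59 (160 and 242).

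Of 28 fibulin, matricellular and elastic fibre genes, all tested, 17 were lower and 11 higher, with a median of -0.10. By at least 1.5-fold, 8 were lower and 2 higher. *Thbs1* had the most reads and was level (92280 in CL basal against 88507 in Ctrl basal, 0.06). Its relative *Thbs2*, a thrombospondin of connective tissue, had 436 reads in CL basal against 1296 in Ctrl basal, which is a log2 fold change of -1.57 (95% interval -1.73 to -1.42), the value of this list nearest to that of *Lum*. *Mfap4*, a protein of elastic microfibrils, was at -1.12 (34 and 76), while *Mfap2*, another, was at 1.18 (180 and 78) and *Thbs3* at 0.34 (300 and 236).

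Other fibroblast markers were mostly nearer to level than *Dcn* or *Lum*. Of 24 genes, 23 were tested, 16 were lower and 7 higher, with a median of -0.18, and 1 was past 1.5-fold in each direction. *Thy1*, a surface glycoprotein of fibroblasts, was at -0.64 (478 reads in CL basal against 746 in Ctrl basal) and *Dpt*, which encodes dermatopontin, a protein that binds decorin, at -0.57 (172 and 256). *Has1*, a hyaluronan synthase, was at 0.74 (1099 and 656) and *Twist1* at 0.47 (106 and 76). The genes of the list with most reads were *Vim* (0.04), *Gsn* (-0.30) and *Pdpn* (0.03). Basal cells also express *Vim* and *Pdpn*. *Gsn* had 113 RPKM in Ctrl basal and 91.5 in CL basal, far above *Col1a1*, and which cells its reads came from was not tested. The fibroblast collagens went both ways, with *Col1a1* at -0.35 (1346 and 1713), *Col1a2* at -0.23 (2027 and 2366) and *Col3a1* at 0.10 (2508 and 2330). *Tcf21* was at 0 reads in both libraries.

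**Figure D4:**
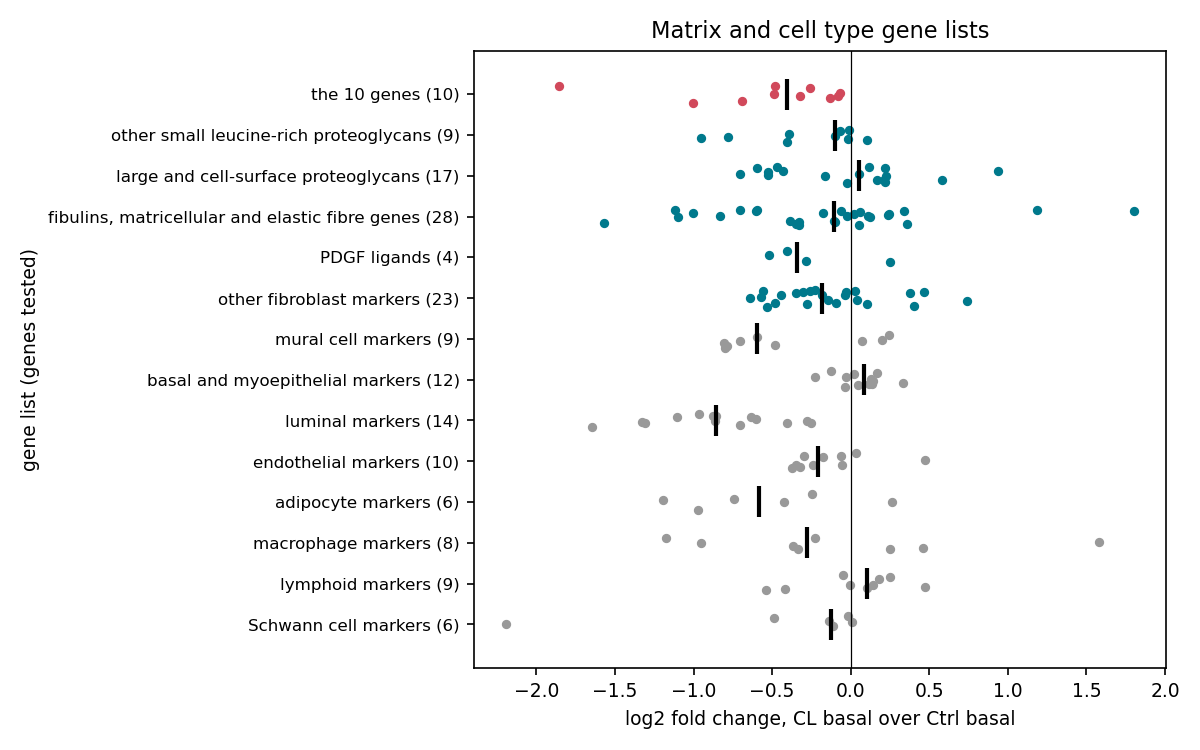
Log2 fold change (CL basal relative to Ctrl basal) of each gene tested (points) by list, with the number of genes tested in brackets and the list's median as a black bar. The 10 genes (red) have a median of -0.40, and the related matrix and fibroblast lists (blue) have medians from -0.34 to 0.05. Among the cell type lists (grey), the luminal median is at -0.86, the mural median at -0.59 and the adipocyte median at -0.58.

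Markers of other cell types that the sort could hold moved as follows. Their part in the values of the 10 genes was not tested. Summed levels are given for Ctrl basal first. Basal and myoepithelial markers had a median of 0.08 over 12 genes, 4 of them lower, and summed levels of 20910 CPM, which is depth-scaled reads, in Ctrl basal and 21860 in CL basal. *Myh11*, *Krt14* and *Krt17*, its genes with most reads, were at 0.02, 0.14 and 0.17. Mural cell markers, some of which are found in the same cells as *Pdgfrb*, had a median of -0.59 over 9 of 10 genes tested. Of these, 6 were lower, 5 of them by at least 1.5-fold, and 3 were higher. *Rgs5*, a defining gene of pericytes, was at -0.48 (1635 reads in CL basal against 2281 in Ctrl basal), and *Notch3* was at -0.71 (803 and 1308). *Mcam*, which holds most reads of that list, was at 0.20 (10212 and 8887), and the summed level of the list was 377 CPM in Ctrl basal and 362 in CL basal. *Higd1b* was at 0 in CL basal, with 7 reads in Ctrl basal.

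Luminal markers were lower for all 14 genes, 11 of them by at least 1.5-fold, with a median of -0.86 and summed levels of 5384 CPM in Ctrl basal and 3303 in CL basal. Its genes with most reads were *Krt8* (-0.71), *Krt18* (-0.86) and *Epcam* (-0.26). Endothelial markers had a median of -0.21 over 10 genes, 8 of them lower, with summed levels of 504 and 417 CPM, and with *Cdh5* at -0.32, *Pecam1* at -0.37 and *Eng* at -0.18. Adipocyte markers had a median of -0.58 over 6 of 10 genes tested, 5 of them lower, with summed levels of 143 and 109 CPM, most of it *Fabp4* (-0.43), which endothelial cells also express. *Lipe* (0.26) and *Pparg* (-0.97) were next in reads. *Pparg*, *Lep* (-0.74) and *Plin1* (-1.20) were lower by at least 1.5-fold, and *Retn* was at 0 in Ctrl basal.

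Immune markers were low, and both these and nerve sheath markers were nearly level in sum. Macrophage markers summed to 27.1 CPM in Ctrl basal and 27.0 in CL basal, with a median of -0.28 over 8 of 12 genes, 5 of them lower, and with *Mertk* at 0.25, *Cd68* at -0.33, *Lyz2* at -0.23 and *Fcgr1* at 0 in Ctrl basal. The level sum held unlike genes: by at least 1.5-fold, *Mrc1* (86 reads in CL basal against 168 in Ctrl basal, -0.95) and *C1qc* (6 and 16, -1.17) were lower and *Mpeg1* (88 and 28, 1.58) was higher. These were named after their values were seen. Lymphoid markers summed to 28.3 and 28.8 CPM, with a median of 0.11 over 9 of 10 genes, 4 of them lower, with *Ptprc* at -0.05, *Lck* at 0.14 and *Cd2* at 0.25, and *Nkg7* at 0 in CL basal. Schwann cell markers summed to 178 and 174 CPM, with a median of -0.13 over 6 genes, 5 of them lower. *Sox10* (-0.02), which basal cells of the mammary gland also express, held most of these reads, ahead of *Mbp* (0.01), and *S100b* (5 reads in CL basal against 30 in Ctrl basal, -2.20) was lower by at least 1.5-fold.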

How the data were processed

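Total RNA of sorted basal cells was made into libraries (SMARTER mRNA-Seq kit per the labels) and sequenced on an Illumina instrument. The authors deposited unnormalized counts of reads over the annotated exons of each gene, laid out as featureCounts writes them, with the exonic length in bases as another deposited column. Per the submitters' processing notes, the build was GRCm38 (mm10). The aligner, the annotation release and the use of strand are not given in the sources used here. The table also held a ratio and its log2, the authors' own comparison, which were not used.

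The members and all lists were chosen with earlier results of these data known. Library sizes were scaled with edgeR 4.0.16 in R 4.3.3 by its TMM method, whose factors were 0.987 (CL basal) and 1.01 (Ctrl basal). Log2 fold changes used a prior count of 2. Genes that reached 20 counts in sum were set against fold thresholds of 1.5 and 2, with no p-value, since 1 library per group gives no spread. Intervals of 95% are Clopper-Pearson intervals of the share of reads in CL basal (scipy 1.17.1), and those of ratios or of assumed coefficients of variation use a normal approximation. RPKM used the TMM-scaled library sizes. The fold calculation was tested on simulated data. The table holds 26 names that read as dates, and these rows stayed in the counts over all genes.

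Genes named beside the members were, from each of 5 related lists, the gene with most counts and, with at least 100 counts, up to 2 with the largest difference in each direction, and from each of 9 cell type lists (the fibroblast list is also a related list) the 3 with most counts, of which 1 is not reported here. The fibroblast collagens, *Kera*, *Epyc* *Mrc1*, *C1qc*, *Mpeg1*, *Lep*, *Plin1*, *S100b* and genes at 0 were named in addition, after their values were seen. Alternatives were other scalings (total counts, DESeq2 1.42.0 size factors, upper quartile), prior counts of 0.5 and 5, no filter or at least 100 counts, removal of a trend on mean expression, halved counts, and assumed coefficients of variation of 0.1, 0.2 and 0.4.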

Additional observations from a re-analysis of the deposited data

How the results depend on the processing

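All 10 genes were lower in CL basal under each scaling, prior count and trend removal, and of 60 such values 8 moved by more than the counting error. These belonged to *Postn* (-0.15 to -0.03), *Sparc* (-0.16 to -0.04), *Bgn* (-0.22 without the trend) and *Fn1* (-0.33 without it), which have narrow intervals. *Lum* ran from -1.90 to -1.75 and *Dcn* from -0.73 to -0.65. The median of the 10 genes ran from -0.44 to -0.37, and was -0.33 over the 9 genes with at least 100 counts. That of all genes tested ran from -0.04 to 0.03. The count of members lower by 2-fold went from 2 to 1, with *Fap* lost, under the upper quartile, a prior count of 5, removal of the trend, and a filter of at least 100 counts, which *Fap* does not pass. Without a filter, 3207 genes were lower and 1342 higher by 2-fold, and 5315 and 3311 by 1.5-fold, since more rarely read genes entered. The median of the other small proteoglycans was then -0.25. With at least 100 counts, 246 genes were lower and 65 higher by 2-fold, and 937 and 398 by 1.5-fold, against 830 and 360, and 2029 and 1100, as reported. Replicates could not be left out, and the groups share no pairs. No paired analysis was possible because the study has 1 library in each group. Counting depth limits *Fap* and *Fbln1*, whose intervals with halved counts include 0.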
